A study of Homo sapiens with 12 samples.

Results

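The comparison described here sets the free intracellular domain of NOTCH1 (NICD) against an empty vector in MCF-10A cells. Its members were chosen from the sample titles alone: the 3 arrays titled as NICD and the 3 titled as vector control, 6 of the 12 arrays of the study. MCF-10A is an established line of human breast epithelium that does not form tumours, and all groups were retrovirally infected for 48 h under standard growth conditions. The other groups, of 3 arrays each, received full-length NOTCH1 or NOTCH1 L1601P+ΔP. L1601P is a substitution in the extracellular heterodimerization region, and ΔP is a deletion of the PEST degradation signal at the C-terminus. The descriptions of the NICD arrays add gfp to the name, those of the vector arrays do not, and neither its meaning nor the promoter that drives each insert is stated there. The labels call the arrays of a group biological replicates and say no more, so a p-value here reflects only how these samples spread, which may be technical.

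Notch receptors are cut at the cell surface after they bind a ligand on a neighbouring cell, and a last cut inside the membrane releases the intracellular domain. That domain enters the nucleus, binds the DNA-binding protein RBPJ and a Mastermind coactivator, and turns RBPJ target genes on, among them the HES and HEY repressors. NICD delivered on its own needs neither ligand nor cleavage. In the mammary gland, Notch signalling is known for its part in the choice between basal and luminal cell fates.

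Levels below are deposited log2 signals of 1 probe set per gene, where a difference of 1 is a doubling, and differences are NICD minus vector ± the standard error of the limma fit, with 3 arrays per group. Calls required an adjusted p (Benjamini-Hochberg, 19775 genes) under 0.05. NICD raised 1887 genes (9.54%) and lowered 3573 (18.1%), and the 3 NICD arrays lay wholly above or below the 3 vector arrays in 39.1% of genes. Read on all probe sets rather than 1 per gene, 19.4% were called. Counts for gene lists below are to be set beside the 9.54% higher and 18.1% lower. The lower genes were more numerous and moved less: 354 genes rose and 204 fell at least 2-fold, 125 rose and 14 fell at least 4-fold, and 60 rose and 0 fell at least 8-fold. Among the called genes 34.6% were higher, a share that became 51.6% after a further cyclic loess scaling of the arrays (2677 higher and 2507 lower). The split between rises and falls therefore depends on the scaling. Whether most genes shifted one way cannot be read from quantile-normalized values.

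**Figure D1:**
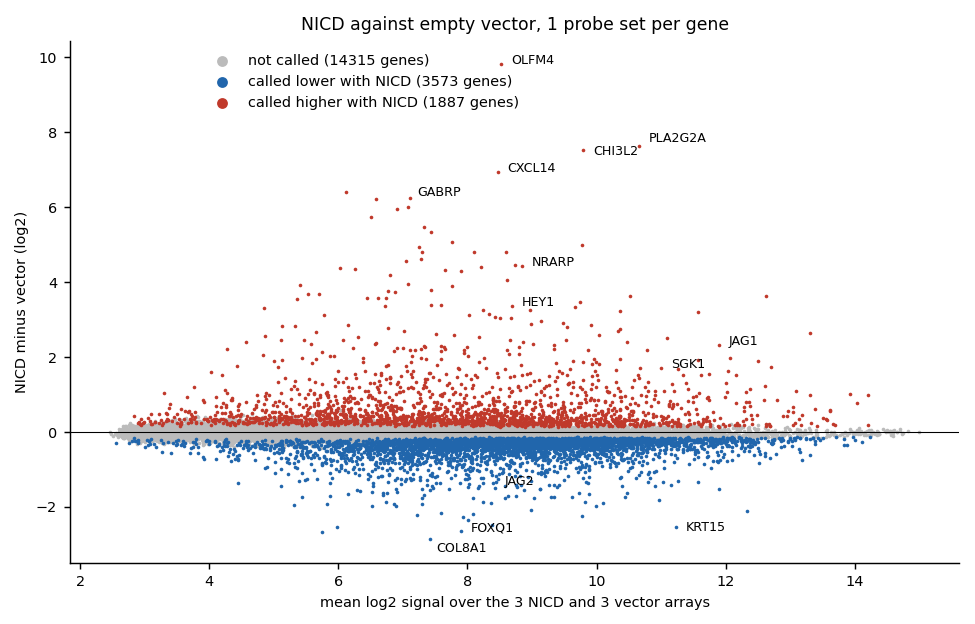
Each point is a gene, placed by its mean log2 signal over the 3 NICD and 3 vector arrays (horizontal) and its NICD minus vector difference on the log2 scale (vertical). The rises reach 9.81 for OLFM4, while no fall passes -2.85, the value of COL8A1.

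Keratins of basal mammary cells were bright on all 6 arrays. KRT5 and KRT14 stood at 13.33 ± 0.04 and 13.33 ± 0.12 with vector (SD, n = 3) and rose by 0.58 ± 0.05 and 0.57 ± 0.07 with NICD. Of the 5 basal markers tested, ITGB4 (-1.97 ± 0.06) and EGFR (-0.72 ± 0.06) fell and CDH3, a cadherin of basal cells, differed by 0.14 ± 0.07 without a call. Summed on the linear scale, these 5 read 25864 to 28052 with vector and 33471 to 36362 with NICD. The 2 general epithelial markers, EPCAM and CDH1, summed to 5253 to 5591 with vector and 4646 to 5017 with NICD, without overlap, with EPCAM called lower. Signals summed over the 8 fibroblast markers were 2213 to 2348 with vector and 2730 to 2896 with NICD. Only DCN, a matrix proteoglycan, was called among them (0.36 ± 0.05), and COL1A1 (0.14), COL3A1 (0.14) and PDGFRA (0.12) were not. The 6 endothelial markers summed to 265 to 285 with vector and 304 to 324 with NICD, with KDR alone called (1.05 ± 0.09). The 4 blood markers ranged from 182 to 212 with vector and from 192 to 216 with NICD, and none was called. The 7 luminal markers summed to 7352 to 7769 with vector and 6564 to 7138 with NICD, where KRT8 rose (0.37 ± 0.08) and KRT18 (-0.24 ± 0.05) and GATA3 (-0.28 ± 0.07) fell. The 4 smooth muscle markers summed to 662 to 730 and 806 to 913, with ACTA2 alone called (0.36 ± 0.06). All samples are labelled as the MCF-10A line, so these sums describe marker genes in that line and do not count other cell types. Whether the make-up of the cultures bears on the results below was not tested. In bulk RNA fewer cells that express a gene and less RNA per cell cannot be told apart. Array control probe sets for the 3′ and 5′ ends of GAPDH differed by -0.01 ± 0.01 with vector and -0.04 ± 0.02 with NICD, and those for ACTB by 0.30 ± 0.05 and 0.39 ± 0.05.

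NOTCH1 itself was read by 2 probe sets. The brighter, which enters the gene-level fit, read 9.50, 9.38 and 9.45 on the vector arrays and 9.64, 9.68 and 9.83 on the NICD arrays, a rise of 0.28 ± 0.06 (adjusted p = 0.00399). The dimmer read 6.42, 6.43 and 6.77 with vector and 8.79, 8.75 and 8.83 with NICD, a rise of 2.25 ± 0.08 (adjusted p = 8.00e-10 over all probe sets). On both probe sets every NICD array lay above every vector array. With full-length NOTCH1 and NOTCH1 L1601P+ΔP the dimmer probe set averaged 9.16 and 8.74, and the brighter 9.52 and 9.50. Which part of the transcript each reads was not analysed here. How much of either signal comes from the introduced RNA and how much from the cells' own gene was not tested.

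In the list of HES and HEY genes, which also holds BHLHE40 and BHLHE41, 5 of 11 rose (45.5%, against 9.54% of all genes). HEY2 read 3.72, 3.71 and 3.62 with vector and 7.47, 7.28 and 7.36 with NICD, so that a gene near the bottom of the signal range became readily measured (3.69 ± 0.08, adjusted p = 3.78e-12). HEY1 read 7.02, 7.06 and 6.97 with vector and 10.38, 10.33 and 10.40 with NICD (3.35 ± 0.06, adjusted p = 1.02e-12). HES4 read 6.93, 7.004 and 7.05 with vector and 9.11, 9.15 and 8.80 with NICD (2.03 ± 0.09, adjusted p = 2.78e-09). In all 3 genes the groups were far apart and the arrays of a group close together. HES2 rose by 1.07 ± 0.06 and BHLHE40, a related stress-responsive repressor, by 0.57 ± 0.06. HES1, the best known of the family, read 9.60, 9.64 and 9.58 with vector and 9.81, 9.97 and 9.54 with NICD. Its groups overlapped, and its difference of 0.16 ± 0.09 was not called (adjusted p = 0.231), nor was that of either of its other probe sets. It was called higher after cyclic loess scaling (0.26, adjusted p = 0.0321), on the mean of its probe sets (0.19, adjusted p = 0.0154) and without the third NICD array (0.28, adjusted p = 0.0143), and its adjusted p ran up to 0.635 over the other alternatives, so its call depends on these choices. HEYL (-0.19 ± 0.10), HES6 (-0.23 ± 0.11), HES7 (-0.26 ± 0.13), HES5 (-0.05 ± 0.11) and BHLHE41 (-0.13 ± 0.13) were not called either. The median over the list was 0.16, against -0.02 over all genes.

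The DNA word that RBPJ binds has the core TGGGAA, often as GTGGGAA. The 250 bases before the start of 3 genes of the family and of the 2 largest rises of the whole comparison are shown to place that core beside the responses. Genes to show were taken among those whose windows hold the core. They are RefSeq promoter sequences of GRCh38.p14, 5′ to 3′ along the gene, with each TGGGAA or its reverse complement TTCCCA in capitals.
HES4, chr1:1000098-1000347, minus strand: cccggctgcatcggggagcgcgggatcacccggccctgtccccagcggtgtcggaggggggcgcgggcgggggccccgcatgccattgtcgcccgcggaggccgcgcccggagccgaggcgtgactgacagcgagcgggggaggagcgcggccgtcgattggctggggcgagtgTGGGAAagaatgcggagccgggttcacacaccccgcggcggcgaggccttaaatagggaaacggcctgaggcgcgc
HEY2, chr6:125749382-125749631, plus strand: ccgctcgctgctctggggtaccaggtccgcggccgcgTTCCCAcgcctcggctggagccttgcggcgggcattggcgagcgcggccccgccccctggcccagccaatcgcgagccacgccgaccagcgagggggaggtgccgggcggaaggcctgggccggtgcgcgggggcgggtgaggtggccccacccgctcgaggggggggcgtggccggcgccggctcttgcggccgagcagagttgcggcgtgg
HES1, chr3:194135898-194136147, plus strand: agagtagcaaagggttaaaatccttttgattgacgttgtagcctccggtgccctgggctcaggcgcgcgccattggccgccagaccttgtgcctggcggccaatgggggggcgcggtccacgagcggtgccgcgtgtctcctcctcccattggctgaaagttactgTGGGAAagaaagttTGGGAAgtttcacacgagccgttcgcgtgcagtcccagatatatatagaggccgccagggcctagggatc
OLFM4, chr13:53028563-53028812, plus strand: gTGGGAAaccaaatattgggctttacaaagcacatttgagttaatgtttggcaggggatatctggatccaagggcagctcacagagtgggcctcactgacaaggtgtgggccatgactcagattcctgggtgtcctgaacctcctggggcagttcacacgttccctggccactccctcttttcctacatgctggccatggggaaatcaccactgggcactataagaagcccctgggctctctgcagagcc
PLA2G2A, chr1:19979660-19979909, minus strand: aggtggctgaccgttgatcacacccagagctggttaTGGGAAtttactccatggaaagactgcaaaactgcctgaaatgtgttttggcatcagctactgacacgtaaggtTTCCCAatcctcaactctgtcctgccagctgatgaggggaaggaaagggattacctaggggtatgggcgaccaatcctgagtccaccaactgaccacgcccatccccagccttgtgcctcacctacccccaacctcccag
In HES4 the core begins 76 bases before the start. HEY2 has one at 213 bases and another that spans the start and so is cut off in the stretch shown. HES1, not called here, carries 2, at 84 and 70 bases. PLA2G2A has 2, at 214 and 140 bases, and OLFM4 has 1 near the far end of the window. The longer GTGGGAA was found in HES4, HEY2, HES1 and OLFM4 and not in PLA2G2A. None of these letters was found in the windows of NRARP, JAG1, CHI3L2 or GABRP, 4 other genes that rose strongly. Within the family, the windows of HES2, which rose, and of HES6 and HES7, not called, held no core. That of HEYL, not called, held 2, at 178 and 99 bases, with 1 GTGGGAA.

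Over all promoters the core was common. Windows of 250 bases before to 50 after the start held TGGGAA on either strand in 22.8% of the 15384 tested genes with a promoter sequence, in 28.7% of the 268 that rose at least 2-fold and in 19.1% of the 157 that fell at least 2-fold. GTGGGAA, which contains it, was in 6.08%, 8.21% and 4.46% in the same order. Of the words bound by HES and HEY repressors, CACGTG was in 8.9%, 5.6% and 9.55%, and CACGCG in 15.2%, 12.3% and 18.5%. After these shares were seen, 1 word and 1 cut were added. TGACTCA, bound by AP-1 factors, was in 3.74%, 8.58% and 5.73%. Among the 94 genes with a promoter sequence that rose at least 4-fold, TGGGAA was in 37.2%, GTGGGAA in 7.45%, CACGTG in 2.13%, CACGCG in 13.8% and TGACTCA in 11.7%. The share with GTGGGAA was thus no higher there than among the 2-fold rises. The mean GC content of the windows was 61.7% over all, 61.5% in the 2-fold rises, 62.6% in the 2-fold falls and 59.3% in the 4-fold rises, and its part in the shares was not tested. These shares describe the windows and carry no test.

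Of the 14 feedback and modifier genes of the pathway, 3 rose and 3 fell, 21.4% in each direction, beside 9.54% and 18.1% of all genes. NRARP, a small ankyrin protein that binds the Notch complex and limits it, read 6.73, 6.79 and 6.38 with vector and 11.05, 11.04 and 11.09 with NICD. The NICD arrays agreed within hundredths, and the rise of 4.43 ± 0.10 was among the 25 largest of the comparison (adjusted p = 5.13e-12). SGK1, a serum- and steroid-induced kinase, rose from 10.14 ± 0.04 to 11.86 ± 0.04 (1.72 ± 0.05), and DTX3L, a Deltex-type ubiquitin ligase, by 0.27 ± 0.05. LFNG, the lunatic fringe sugar transferase that alters which ligands a Notch receptor answers to, read 7.09, 7.11 and 7.18 with vector and 5.82, 5.29 and 5.51 with NICD. Every NICD array was lower by more than 1 log2 unit, and the difference was -1.58 ± 0.10 (adjusted p = 1.29e-07), while its other probe set gave 0.00 ± 0.12 and was not called. DTX4 (-0.83 ± 0.06) and the ubiquitin ligase ITCH (-0.25 ± 0.06) fell. The other fringe genes, MFNG (0.23 ± 0.13) and RFNG (-0.06 ± 0.08), were not called, nor were DTX1 (0.25 ± 0.09), DTX3 (-0.02 ± 0.10), NUMB (-0.03 ± 0.20), NUMBL (0.21 ± 0.07) and FBXW7 (0.04 ± 0.08), which mark Notch for recycling or turnover.

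The 2 Jagged ligands moved in opposite directions. JAG1 read 10.82, 10.71 and 10.67 with vector and 13.07, 13.04 and 13.06 with NICD (2.32 ± 0.06, adjusted p = 3.27e-11), and 5 of its 6 probe sets were called higher. JAG2 read 9.13, 9.07 and 9.33 with vector and 7.81, 7.56 and 7.66 with NICD (-1.50 ± 0.09, adjusted p = 5.43e-08), and both of its probe sets were lower. The groups were well apart in both genes. DLK2, a non-canonical ligand that can dampen Notch, read 9.22, 9.34 and 9.38 with vector and 7.29, 7.44 and 7.53 with NICD (-1.89 ± 0.07), which put it among the 25 largest falls. CCN3, a matricellular protein that binds Notch, rose by 0.53 ± 0.07. The delta ligands DLL1 (0.10 ± 0.09), DLL3 (0.02 ± 0.06) and DLL4 (-0.06 ± 0.07) and the neuronal ligand DNER (-0.15 ± 0.05) were not called on the probe sets used, though a second DLL1 probe set gave -0.96 ± 0.13 and was called. In all, 2 of 13 ligands rose and 2 fell, 15.4% in each direction, beside 9.54% and 18.1% of all genes.

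NOTCH3 was the receptor other than NOTCH1 with the largest difference: it read 6.35, 6.46 and 6.41 with vector and 7.10, 7.32 and 7.37 with NICD, without overlap (0.85 ± 0.07, adjusted p = 2.08e-06), although its dimmer probe set differed by -0.09. NOTCH2 rose by 0.22 ± 0.08 (adjusted p = 0.0482), close to the threshold. NOTCH4 differed by 0.09 ± 0.10 and was not called. Of the 14 genes for receptor maturation and cleavage, 3 rose (21.4%) and 4 fell (28.6%), beside 9.54% and 18.1% of all genes. The falls dropped to 1 after cyclic loess scaling. NEURL1B, a ubiquitin ligase that acts on ligands, rose by 1.51 ± 0.06, the convertase FURIN by 0.32 ± 0.08 and APH1B, a γ-secretase subunit, by 0.27 ± 0.08. The γ-secretase subunits PSEN2 (-0.40 ± 0.05), APH1A (-0.30 ± 0.09) and PSENEN (-0.22 ± 0.07) fell, and so did POGLUT1 (-0.19 ± 0.06), which glucosylates Notch. ADAM10 (0.11 ± 0.05), ADAM17 (-0.11 ± 0.07) and NCSTN (-0.08 ± 0.06), which cut the receptor or hold its last protease together, were not called.

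RBPJ, the DNA-binding partner of NICD, read 9.83, 9.85 and 9.91 with vector and 9.88, 9.91 and 9.99 with NICD, and its difference of 0.06 ± 0.06 was not called. Of the 3 Mastermind coactivators, MAML1 differed by 0.06 ± 0.05 without a call, while MAML2 (-0.49 ± 0.06) and MAML3 (-1.10 ± 0.09) fell. For MAML3 that fall was seen on 1 of 3 probe sets. The acetyltransferases KAT2B (0.52 ± 0.08) and EP300 (0.29 ± 0.08) and the corepressors TLE1 (0.30 ± 0.05) and TLE3 (0.33 ± 0.06) rose, and TLE4 (-0.20 ± 0.06), TLE5 (-0.47 ± 0.06), CTBP2 (-0.34 ± 0.05) and HDAC1 (-0.33 ± 0.06) fell. That made 4 rises and 6 falls among 23 nuclear components, 17.4% and 26.1%, beside 9.54% and 18.1% of all genes.

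**Figure D2:**
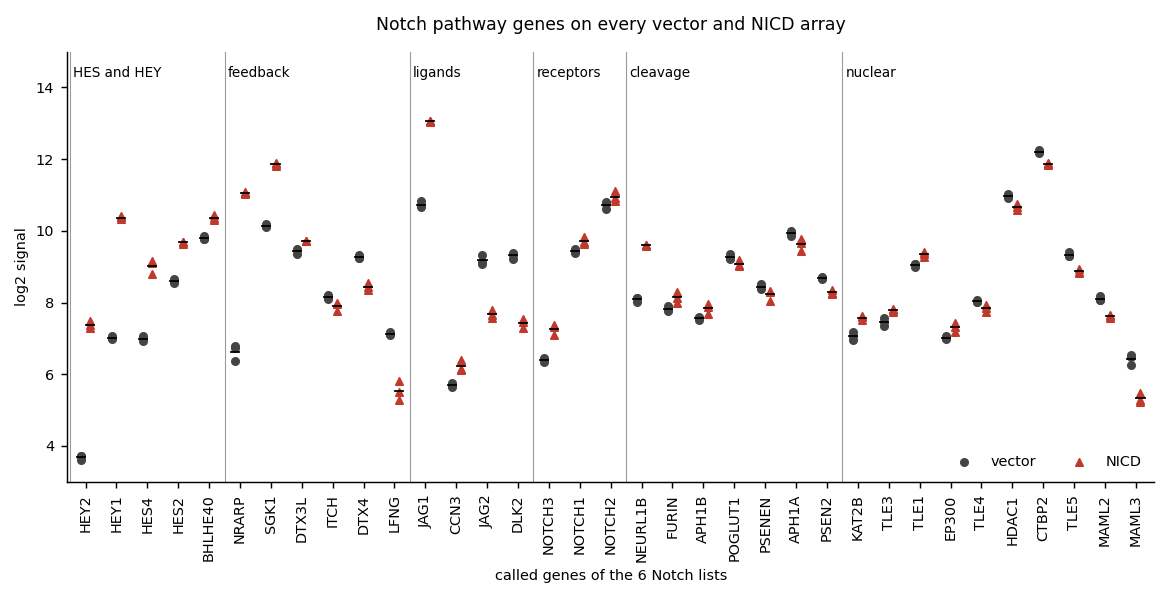
Log2 signal of each called gene of the 6 Notch lists on every vector array (dark circles) and NICD array (red triangles), with short bars at the group means. HEY2, HEY1, NRARP and JAG1 stand furthest above vector, and DLK2, LFNG and JAG2 furthest below.

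OLFM4, PLA2G2A and CHI3L2 had the 3 largest rises. OLFM4, an intestinal crypt glycoprotein that cells secrete, read 3.51, 3.42 and 3.93 with vector and 13.48, 13.37 and 13.45 with NICD (9.81 ± 0.13, adjusted p = 7.47e-14). PLA2G2A, a secreted phospholipase with antibacterial activity, read 6.72, 6.94 and 6.84 with vector and 14.49, 14.46 and 14.48 with NICD (7.65 ± 0.07, adjusted p = 7.23e-15). CHI3L2, a chitinase-like protein without enzyme activity, read 5.99, 6.21 and 5.89 with vector and 13.53, 13.49 and 13.67 with NICD (7.53 ± 0.10). All 3 ended near the top of the signal range, and the NICD arrays of each lay close together. Array signals flatten at the dim end, so a rise from there, as for OLFM4, is understated. The highest value on any array was 15.01. Whether signals near it flatten, here and in the comparison of constructs below, was not tested. In the olfactomedin, chitinase-like and phospholipase A2 list 6 of 30 rose (20%) and 4 fell (13.3%), beside 9.54% and 18.1% of all genes.

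CXCL14, an epithelial chemokine, read 4.76, 4.98 and 5.27 with vector and 11.88, 11.99 and 11.93 with NICD (6.93 ± 0.12). GABRP, the π subunit of the GABA-A chloride channel, read 4.14, 3.95 and 3.87 with vector and 10.11, 10.32 and 10.26 with NICD (6.25 ± 0.13). ACKR3, an atypical receptor that removes the chemokine CXCL12, read 3.49, 3.36 and 3.56 with vector and 9.80, 9.50 and 9.77 with NICD (6.22 ± 0.11). All 3 were dim on every vector array and bright on every NICD array. IGFBP7-AS1 (6.41 ± 0.11), FDCSP (5.998 ± 0.10), CCDC102B (5.75 ± 0.13), AFAP1L2 (5.49 ± 0.11) and DAPL1 (5.06 ± 0.11) also rose by more than 5. LBH, a transcriptional cofactor of mammary basal cells, read 3.53, 4.54 and 3.73 with vector and 9.83, 9.87 and 9.98 with NICD (5.96 ± 0.19), with the second vector array above the others.

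PLA2G5, a neighbour of PLA2G2A on chromosome 1 in the same phospholipase family, rose from 4.77 ± 0.20 to 10.11 ± 0.11 (5.34 ± 0.11). HSD17B2, which inactivates estradiol and testosterone, rose from 7.28 ± 0.14 to 12.26 ± 0.02 (4.98 ± 0.08). GPX2, a glutathione peroxidase of epithelia, rose from 6.18 ± 0.03 to 11.001 ± 0.10 (4.82 ± 0.08). GUCY1A1 and GUCY1B1, the subunits of the nitric oxide receptor guanylate cyclase, rose by 4.29 ± 0.09 and 4.42 ± 0.14. GUCY1A1, outside the 25 largest rises, was named after its value was seen. ENPP2, or autotaxin, which makes lysophosphatidic acid, rose by 4.56 ± 0.11, the death ligand TNFSF10 by 4.45 ± 0.09 and the lipid-antigen presenter CD1D by 4.94 ± 0.08. RRAD (4.82 ± 0.12), SYN2 (4.62 ± 0.17), STON1 (4.35 ± 0.13), SERPINB4 (4.82 ± 0.11) and POSTN (4.38 ± 0.10) complete the 25 largest rises with NRARP. For some genes the probe sets gave unequal sizes: the 3 RRAD probe sets rose by 0.48 to 4.99 and the 3 of ACKR3 by 0.26 to 6.22.

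The other constructs gave unequal values for these genes. NOTCH1 L1601P+ΔP against vector gave 6.64 ± 0.07 for PLA2G2A and 6.56 ± 0.13 for OLFM4, but 0.33 ± 0.13 for GABRP, 0.23 ± 0.11 for ACKR3 and 0.40 ± 0.10 for FDCSP. Full-length NOTCH1 against vector gave 3.25 ± 0.07, 2.24 ± 0.13, 0.10 ± 0.13, -0.05 ± 0.11 and -0.26 ± 0.10 in the same order. All these comparisons share the vector arrays. Tested directly, with 19.8% of all genes called between NICD and NOTCH1 L1601P+ΔP and 27.0% between NICD and full-length NOTCH1, NICD exceeded NOTCH1 L1601P+ΔP by 1.01 ± 0.07 for PLA2G2A and 3.25 ± 0.13 for OLFM4. The same difference was 5.99 ± 0.11 for ACKR3, 5.92 ± 0.13 for GABRP, 5.602 ± 0.10 for FDCSP and 5.12 ± 0.11 for IGFBP7-AS1, the 4 largest of that comparison, followed by CXCL14 (5.02 ± 0.12), DAPL1 (4.62 ± 0.11), PLA2G5 (4.31 ± 0.11) and GPX2 (4.22 ± 0.08). HEY2 and HEY1 differed by 0.27 ± 0.08 and 0.72 ± 0.06 with NOTCH1 L1601P+ΔP against vector and 3.42 ± 0.08 and 2.63 ± 0.06 with NICD against NOTCH1 L1601P+ΔP. For HES4 those values were 1.28 ± 0.09 and 0.74 ± 0.09. The largest shortfalls of NICD against NOTCH1 L1601P+ΔP were those of KRT15 (-2.18 ± 0.06), FOXQ1 (-2.02 ± 0.07), PSCA (-1.98 ± 0.10), TPRG1 (-1.83 ± 0.11), AOX1 (-1.83 ± 0.05), COL8A1 (-1.80 ± 0.07), KLRC3 (-1.70 ± 0.07) and SVEP1 (-1.65 ± 0.06).

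**Figure D3:**
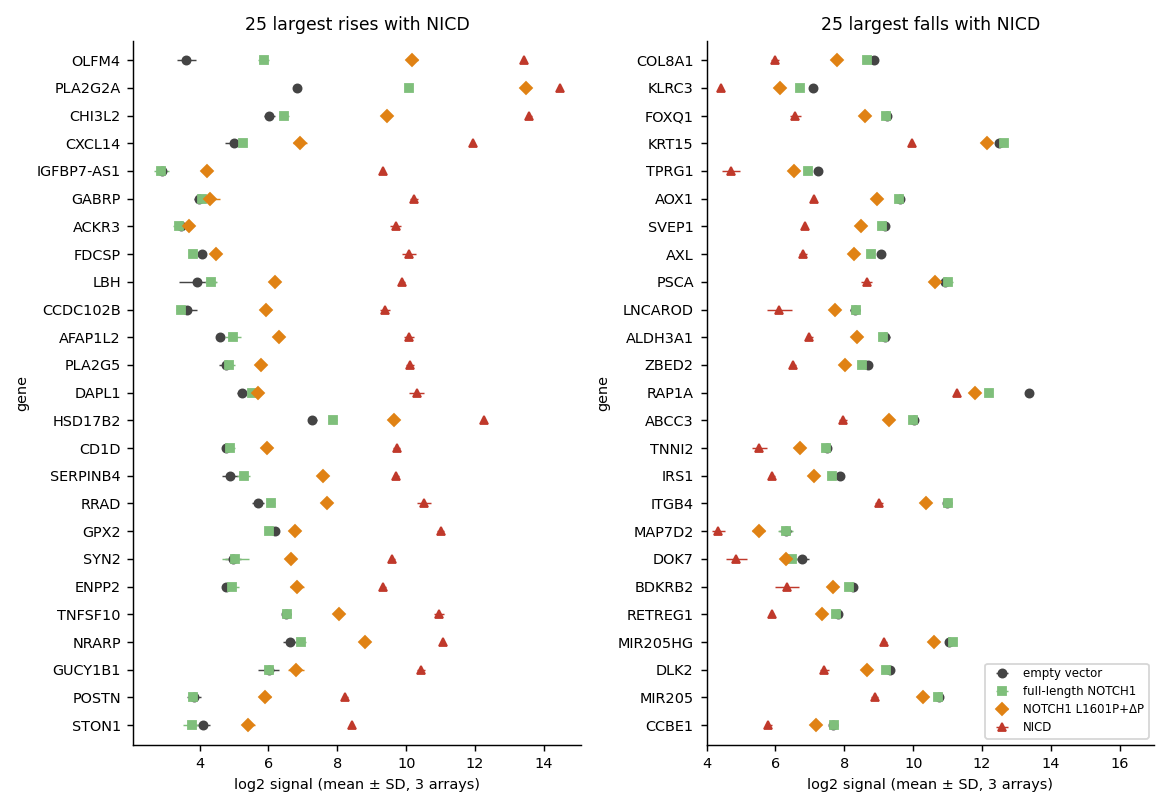
Mean log2 signal ± SD over 3 arrays of the 25 largest rises (left) and 25 largest falls (right) with NICD, in the empty vector (dark circle), full-length NOTCH1 (green square), NOTCH1 L1601P+ΔP (orange diamond) and NICD (red triangle) groups. For PLA2G2A the orange diamond lies at 13.47, near NICD at 14.48, whereas for GABRP it lies at 4.31, near vector at 3.98.

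The falls were smaller. The 25 largest were defined among called genes without overlap between the groups, so the lack of overlap in them is not a result. COL8A1, a short-chain collagen, read 8.81, 8.82 and 8.91 with vector and 5.91, 5.94 and 6.14 with NICD (-2.85 ± 0.07, adjusted p = 1.03e-11). FOXQ1, a forkhead factor, read 9.17, 9.26 and 9.24 with vector and 6.47, 6.76 and 6.51 with NICD (-2.65 ± 0.07, adjusted p = 2.35e-11). KRT15, which basal layers of epithelia express, read 12.53, 12.45 and 12.52 with vector and 9.93, 9.998 and 9.96 with NICD (-2.54 ± 0.06, adjusted p = 4.12e-12). In each the groups stood more than 2 units apart. AXL, a receptor kinase of the TAM family, read 8.98, 9.09 and 9.10 with vector and 6.66, 6.86 and 6.86 with NICD (-2.26 ± 0.08). PSCA, a small surface protein, read 10.86, 10.91 and 10.95 with vector and 8.47, 8.76 and 8.72 with NICD (-2.25 ± 0.10). KLRC3 (-2.67 ± 0.07), TPRG1 (-2.54 ± 0.11), the matrix protein SVEP1 (-2.34 ± 0.06), ZBED2 (-2.16 ± 0.06) and LNCAROD (-2.20 ± 0.14) also fell by more than 2. IRS1, the adaptor of the insulin receptor (-1.98 ± 0.07), BDKRB2 and BDKRB1, the bradykinin receptors (-1.91 ± 0.13 and -1.64 ± 0.12), and RETREG1, the reticulum-phagy receptor (-1.91 ± 0.05), fell. BDKRB1 was named after its value was seen. TNNI2 (-1.98), MAP7D2 (-1.95), DOK7 (-1.92) and CCBE1 (-1.87) were lower as well. RAP1A, a small GTPase, is on the list through its brightest probe set (-2.10 ± 0.06). The next brightest gave -2.42 ± 0.07, and its remaining 2 probe sets gave 0.14 ± 0.08 and 0.08 ± 0.05, which were not called.

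Secreted protease inhibitors held several large rises. Of 44 WAP-domain and serpin protease inhibitors, 16 rose and 2 fell, with a median difference of 0.08. SERPINA3, an acute-phase inhibitor of neutrophil proteases, read 10.93, 10.78 and 10.73 with vector and 14.50, 14.46 and 14.41 with NICD (3.64 ± 0.06). PI3, or elafin, an elastase inhibitor, rose from 11.99 ± 0.10 to 14.63 ± 0.02 (2.64 ± 0.06), and its neighbours WFDC5 and WFDC12 rose by 1.64 ± 0.15 and 1.32 ± 0.14. SERPINB3 rose by 2.75 ± 0.10, SERPINA12 by 3.13 ± 0.10 and SERPINF1, the pigment epithelium factor, by 2.17 ± 0.11. SERPINB3 and SERPINB4 are near-identical copies whose probes may read both. SERPINB13 (-0.56 ± 0.07) and SERPINB8 (-0.42 ± 0.06) fell. Of 20 S100 calcium-binding proteins, 8 rose, led by S100A7 (2.80 ± 0.18), S100A3 (2.08 ± 0.07), S100A4 (1.28 ± 0.08) and the calprotectin pair S100A9 (1.15 ± 0.09) and S100A8 (1.004 ± 0.08), and 4 fell, led by S100A14 (-0.71 ± 0.06).

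In complement and acute-phase genes 5 of 20 rose and 5 fell, 25% in each direction, beside 9.54% and 18.1% of all genes. C1S and C1R, the linked proteases that start the classical pathway, rose from 6.92 ± 0.10 to 9.45 ± 0.03 (2.52 ± 0.07) and from 7.52 ± 0.09 to 9.72 ± 0.17 (2.19 ± 0.10). CFB (0.80 ± 0.08) and the complement shield CD59 (0.99 ± 0.05) rose too. CLU (-0.69 ± 0.09), C5 (-0.61 ± 0.09) and the other shields CD55 (-0.49 ± 0.07) and CD46 (-0.26 ± 0.05) fell, and C3 (0.03 ± 0.05) was not called. CD14, the lipopolysaccharide co-receptor, read 8.76, 8.66 and 8.84 with vector and 11.39, 11.34 and 11.29 with NICD (2.59 ± 0.06). Of the 19 genes in that sensing list 4 rose and 4 fell, 21.1% in each direction. LBP (0.47 ± 0.12), TLR1 (0.31 ± 0.10) and MYD88 (0.16 ± 0.05) were the other rises, and the kinases IRAK2 (-0.37 ± 0.09) and IRAK1 (-0.24 ± 0.05), the adaptor TICAM1 (-0.29 ± 0.08) and TLR6 (-0.28 ± 0.07) the falls. The rises numbered 2 or 3 with any 1 array left out.

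In the IL1 family several receptors rose and 2 cytokines fell. IL1R1, the signalling receptor, read 7.58, 7.53 and 7.53 with vector and 10.52, 10.42 and 10.35 with NICD (2.88 ± 0.06, adjusted p = 1.56e-12). IL1RL1, the IL33 receptor (1.95 ± 0.07), IL18R1 (1.44 ± 0.17), the decoy receptor IL1R2 (0.99 ± 0.10) and the shared chain IL1RAP (0.50 ± 0.06) rose with it, as did the antagonist IL1RN (1.28 ± 0.12) and IL1B (0.51 ± 0.08). IL18 (-0.73 ± 0.07) and IL1A (-0.72 ± 0.07) fell. That was 7 higher and 2 lower of 17. In the IL6 family 5 of 16 rose. LIFR, the receptor chain for leukaemia inhibitory factor, read 6.69, 6.48 and 6.58 with vector and 10.56, 10.63 and 10.73 with NICD (4.06 ± 0.08), and IL6 itself 5.07, 4.95 and 4.82 and 8.63, 8.48 and 8.44 (3.57 ± 0.09). OSMR (0.92 ± 0.05), IL11RA (0.47 ± 0.08) and the shared chain IL6ST (0.27 ± 0.06) rose less, and IL6R, the ligand-binding chain for IL6, fell by 1.19 ± 0.08. STAT3 (0.20 ± 0.08) and LIF (-0.19 ± 0.10) were not called.

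Besides CXCL14, CXCL2 (1.33 ± 0.06), CXCL1 (0.75 ± 0.08), CXCL8 (0.30 ± 0.08) and CXCL6 (0.27 ± 0.08), the neutrophil attractants, rose, and CXCL16 (-0.33 ± 0.08) fell, 5 higher and 1 lower of 14. The higher count ranged from 3, without the third vector or the second NICD array, to 6 when 1 array was left out. CCL20 (1.06 ± 0.07), CCL28 (0.70 ± 0.07), CCL26 (0.68 ± 0.14), CCL2 (0.49 ± 0.15) and the growth factor CSF1 (0.61 ± 0.07) rose, while CSF3 fell by 1.17 ± 0.09, 5 higher and 1 lower of 22 CC chemokines and colony factors. ACKR1, another scavenging receptor, rose by 1.57 ± 0.08, and of 21 chemokine receptors it and ACKR3 were called. Among NF-kB genes, TNFAIP3, the feedback inhibitor A20, read 9.17, 9.04 and 8.94 with vector and 10.95, 10.97 and 10.87 with NICD (1.88 ± 0.06). RELB rose by 0.56 ± 0.09 and ICAM1 by 0.35 ± 0.07, and TNFAIP2 fell by 0.84 ± 0.08, 5 higher and 1 lower of 14. NFKBIA (0.03 ± 0.07), NFKB1 (-0.13 ± 0.05) and RELA (-0.04 ± 0.05) were not called.

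The EGFR family gave 1 higher and 5 lower of 15, with 3 lower when the first vector or the third NICD array was left out. EGFR, on whose ligand MCF-10A cultures depend, read 10.83, 10.73 and 10.68 with vector and 10.05, 10.05 and 9.98 with NICD (-0.72 ± 0.06, adjusted p = 7.24e-07), its ligands EREG (-1.23 ± 0.07) and HBEGF (-0.84 ± 0.10) fell, and TGFA rose by 0.49 ± 0.06. Of the 19 feedback genes that MAPK signalling induces, 12 fell and 1 rose, with a median of -0.45: SPRED2 (-1.001 ± 0.05), SPRY2 (-0.86 ± 0.06), SPRY1 (-0.73 ± 0.06), PHLDA1 (-0.68 ± 0.08), ETV4 (-0.62 ± 0.06), DUSP6 (-0.61 ± 0.08) and DUSP4 (-0.59 ± 0.05) were lower and DUSP10 (0.17 ± 0.05) higher. DUSP1 (-0.03 ± 0.05), DUSP5 (0.08 ± 0.06) and IER3 (0.15 ± 0.06) were not called. Among the 18 TAM, VEGF and semaphorin genes 9 fell, with AXL first, then SEMA3C (-1.51 ± 0.06), NRP2 (-1.17 ± 0.07), VEGFC (-0.55 ± 0.07) and SEMA3A (-0.47 ± 0.07). The VEGF receptor KDR and co-receptor NRP1 rose, by 1.05 ± 0.09 and 1.17 ± 0.06. In the Eph system EFNA1, a ligand, rose by 1.20 ± 0.06 and its receptor EPHA2 fell by 1.05 ± 0.06. Each direction held 4 of 21 genes (19%, against 9.54% higher and 18.1% lower of all genes). The higher count was 2 without the first or second vector or the third NICD array.

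In the IGF axis, IGFBP3 rose from 5.88 ± 0.17 to 8.11 ± 0.15 (2.23 ± 0.10) and IGFBP7 from 9.68 ± 0.12 to 11.87 ± 0.11 (2.19 ± 0.08), both of them binding proteins, while IGFBP6 (-1.65 ± 0.08) and IGFBP2 (-0.42 ± 0.08) fell. IGFL1 and IGFL2, similar small secreted proteins whose probes may cross-read, rose by 3.35 ± 0.11 and 3.25 ± 0.12. FGFR1 rose by 0.91 ± 0.09 and IGF1R by 0.46 ± 0.06. FGFR3 (-0.84 ± 0.06), FGF2 (-0.59 ± 0.05), PDGFC (-1.34 ± 0.06) and PDGFD (-0.56 ± 0.08) fell. The FGF, PDGF and IGF genes as a whole gave 10 higher (21.7%) and 8 lower (17.4%) of 46, beside 9.54% and 18.1% of all genes. CCN1, a matricellular protein, read 8.71, 8.85 and 8.70 with vector and 12.06, 11.86 and 11.99 with NICD (3.22 ± 0.07), whereas CCN2, known as a target of the same YAP pathway, fell by 0.45 ± 0.08. AJUBA (-1.62 ± 0.06) and AMOTL1 (-0.60 ± 0.05) fell and TEAD2 (1.04 ± 0.08) rose, 7 higher and 6 lower of 21 CCN and YAP genes.

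Of 44 BMP and TGF-beta genes 14 rose (31.8%) and 12 fell (27.3%), against 9.54% and 18.1% of all genes. BMP6 read 4.91, 5.16 and 5.04 with vector and 8.05, 8.71 and 8.43 with NICD (3.36 ± 0.15), and INHBB (1.45 ± 0.11), SMAD3 (1.14 ± 0.06) and ID3 (0.95 ± 0.07) rose. BMP2 (-0.81 ± 0.07), TGFB2 (-0.85 ± 0.10), ID1 (-0.44 ± 0.05), the latency protein LTBP3 (-1.24 ± 0.10) and the receptors TGFBR3 (-1.36 ± 0.06) and TGFBR2 (-0.54 ± 0.05) fell. In the WNT pathway the antagonists SFRP1 (-1.31 ± 0.05) and DKK1 (-1.13 ± 0.08), the co-receptor LRP5 (-0.89 ± 0.14) and the feedback ligase RNF43 (-0.70 ± 0.09) fell. FZD4 (1.42 ± 0.11), LGR4 (0.59 ± 0.06) and WNT5A (0.43 ± 0.07) rose, in all 7 higher and 8 lower of 54, shares of 13% and 14.8% that lie near the 9.54% and 18.1% of all genes.

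Cell-cell adhesion and envelope genes did not move as one. Of 14 desmosome genes, 8 rose, with a median of 0.41: DSC3 (0.98 ± 0.07), DSG3 (0.93 ± 0.05), DSC2 (0.93 ± 0.07), PKP1 (0.71 ± 0.11) and DSP (0.61 ± 0.06), the cadherins and plaque proteins of stratified epithelium. PKP2 (-1.41 ± 0.07) and PKP3 (-0.31 ± 0.06) fell. Tight and gap junction genes gave 1 higher, CLDN1 (0.53 ± 0.05), and 7 lower of 38 (18.4%, near the 18.1% of all genes), among them GJB5 (-0.69 ± 0.07), MARVELD2 (-0.53 ± 0.07) and TJP1 (-0.27 ± 0.05). Of 44 keratins, 10 rose and 4 fell. KRT16 (1.19 ± 0.09), KRT23 (0.99 ± 0.15), KRT75 (0.96 ± 0.08) and KRT10 (0.68 ± 0.07) rose, and after KRT15 the falls were KRT4 (-0.69 ± 0.12), KRT222 (-0.67 ± 0.11) and KRT18 (-0.24 ± 0.05). IVL, or involucrin, a cornified envelope scaffold, read 6.46, 6.79 and 6.60 with vector and 9.77, 10.07 and 9.76 with NICD (3.25 ± 0.10). Its list gave 8 higher and 8 lower of 37 with IVL included, 21.6% in each direction, beside 9.54% and 18.1% of all genes. SPRR2B (1.52 ± 0.12), SBSN (0.79 ± 0.12) and DSG1 (0.54 ± 0.13) rose, and PPL (-0.89 ± 0.07), the cross-linking enzyme TGM1 (-0.81 ± 0.07), SCEL (-0.73 ± 0.11) and SPRR1A (-0.65 ± 0.11) fell. Among LY6-type surface proteins LY6D (2.20 ± 0.09) and LYPD3 (1.02 ± 0.07) rose while PSCA, LY6E (-1.36 ± 0.08) and LY6K (-0.79 ± 0.07) fell, 3 higher and 3 lower of 19. Both shares were 15.8%, beside 9.54% and 18.1% of all genes. Of 14 kallikreins KLK10 (1.98 ± 0.09), KLK14 (1.08 ± 0.09) and KLK13 (0.35 ± 0.09) rose and KLK5 (-0.46 ± 0.13) fell, and of 22 mucin-type genes TFF1 and MUC4 (0.23 ± 0.08) rose and AGR2 and MUC19 (-0.56 ± 0.07) fell, 9.09% in each direction.

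Several genes by which basal cells hold the basement membrane fell. Of 25 integrins 9 fell and 3 rose. ITGB4, the hemidesmosome subunit, read 10.97, 10.89 and 11.05 with vector and 8.93, 9.14 and 8.93 with NICD (-1.97 ± 0.06, adjusted p = 1.75e-10), and its partner ITGA6 fell by 1.07 ± 0.05. The laminin-binding ITGA3 (-1.01 ± 0.07), the collagen-binding ITGA2 (-0.96 ± 0.08) and ITGB1, their common partner (-0.53 ± 0.05), fell, as did the leukocyte subunit ITGB2 (-1.65 ± 0.09). ITGA5 (1.16 ± 0.07) and ITGAV (0.68 ± 0.06), which bind fibronectin and vitronectin, and ITGA1 (0.39 ± 0.09) rose. LAMB3, a chain of the laminin that hemidesmosomes bind, read 11.14, 11.06 and 11.16 with vector and 9.69, 9.75 and 9.58 with NICD (-1.44 ± 0.05), and COL7A1, the anchoring fibril collagen, fell by 0.83 ± 0.09. LAMA5 (-0.65 ± 0.07) and LAMB1 (-0.32 ± 0.07) fell and LAMA1 (1.30 ± 0.09) and LAMB2 (0.39 ± 0.07) rose, 2 higher and 3 lower of 10 laminin chains. Of 17 contractile genes, TPM1 (1.53 ± 0.05), CALD1 (0.85 ± 0.06) and ACTA2 rose and CNN2 (-0.41 ± 0.08) fell.

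Collagens and matrix glycoproteins changed in both directions. Of 43 collagen chains 9 rose (20.9%) and 7 fell (16.3%), against 9.54% and 18.1% of all genes. The type VI chains COL6A1 (2.11 ± 0.09), COL6A3 (1.16 ± 0.10) and COL6A2 (0.81 ± 0.14) rose, as did COL18A1 (2.58 ± 0.13) and the paired type IV chains COL4A1 (1.56 ± 0.06) and COL4A2 (0.76 ± 0.09). Another type IV pair, COL4A5 (-0.74 ± 0.07) and COL4A6 (-1.62 ± 0.05), fell with COL8A1 and COL16A1 (-1.16 ± 0.09). Of 36 matrix glycoproteins 13 rose and 8 fell. BGN, a small proteoglycan, rose from 5.54 ± 0.02 to 9.34 ± 0.16 (3.80 ± 0.17), SPP1, or osteopontin, from 3.85 ± 0.24 to 7.54 ± 0.07 (3.69 ± 0.10), FBN1, or fibrillin, from 5.89 ± 0.14 to 9.29 ± 0.09 (3.40 ± 0.09) and SPARC from 7.44 ± 0.10 to 9.89 ± 0.09 (2.45 ± 0.08). SPARCL1 (3.56 ± 0.10), MGP (3.07 ± 0.15) and FBLN5 (2.14 ± 0.14) rose too. FBLN1 (-1.43 ± 0.07), THBS1 (-1.21 ± 0.09) and the perlecan gene HSPG2 (-0.53 ± 0.09) fell with SVEP1. The summed signal of the fibroblast marker genes in these MCF-10A samples, given above, differed between the groups as well. Its relation to these rises was not tested.

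Of 53 matrix proteases and their inhibitors 7 rose (13.2%, against 9.54% of all genes) and 7 fell (13.2%, against 18.1%). ADAMTS15 rose from 4.89 ± 0.17 to 8.65 ± 0.10 (3.76 ± 0.11) and ADAMTS1 from 4.72 ± 0.13 to 7.59 ± 0.10 (2.87 ± 0.11). MMP7 (1.30 ± 0.13) and TIMP1 (0.99 ± 0.05) rose, and TIMP3 (-1.52 ± 0.06), TIMP2 (-0.996 ± 0.06) and MMP28 (-1.06 ± 0.06) fell. Of 12 matrix cross-linking genes, 6 fell, among them LOX (-0.71 ± 0.06), LOXL1 (-0.66 ± 0.15) and PLOD2 (-0.55 ± 0.06), and TGM2 (1.06 ± 0.11) and P4HA2 (0.47 ± 0.06) rose.

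Several transcription factors of the epithelial-mesenchymal transition rose. Their list gave 7 higher and 6 lower of 36, or 19.4% and 16.7%, against 9.54% and 18.1% of all genes. SNAI2 read 10.38, 10.51 and 10.40 with vector and 12.17, 12.14 and 12.003 with NICD (1.67 ± 0.06, adjusted p = 7.18e-10). ZEB2 read 4.38, 4.62 and 4.18 with vector and 6.67, 6.66 and 6.95 with NICD (2.36 ± 0.15), with 3 of its 5 probe sets called higher, and ZEB1 read 5.93, 6.06 and 5.94 and 6.73, 6.98 and 7.20 (0.99 ± 0.11). The groups were separate in each. ESRP1, the epithelial splicing factor (-1.17 ± 0.05), and OVOL2, an epithelial repressor (-0.56 ± 0.07), fell. CDH1, the epithelial cadherin, read 11.97, 11.98 and 11.89 with vector and 11.88, 11.99 and 12.01 with NICD, and VIM, vimentin, 12.06, 12.12 and 12.26 and 12.19, 12.24 and 12.21. Both overlapped, with differences of 0.02 ± 0.06 and 0.06 ± 0.06 that were not called. CDH2, the neural cadherin (-0.40 ± 0.09), TWIST1 (-0.26 ± 0.07) and EPCAM (-0.74 ± 0.06) fell.

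Transcripts that host microRNAs were among the falls. MIR205HG, the host of miR-205, read 11.15, 10.999 and 10.998 with vector and 9.15, 9.07 and 9.23 with NICD (-1.90 ± 0.06, adjusted p = 1.63e-10), and a probe set annotated to MIR205 read 10.87, 10.73 and 10.67 and 8.91, 8.96 and 8.77 (-1.87 ± 0.06). MIR100HG, which hosts miR-100 and miR-125b-1, fell by 1.24 ± 0.07 on 1 of 2 probe sets. MIR31HG (-0.78 ± 0.13) and MIR200CHG (-0.71 ± 0.11), the host of miR-200c and miR-141, fell, and the last was named after its value was seen. Over all 1665 long noncoding and host transcripts tested, 81 rose (4.86%) and 73 fell (4.38%), under the 9.54% and 18.1% of all genes. Of the mature forms encoded at these loci 6 are shown, 5′ to 3′, from RefSeq, GRCh38.p14. The seed (bases 2 to 8) is in capitals, because it sets which messages each can pair with. A copy of hsa-let-7a-5p, which lies between miR-125b and miR-100 on chromosome 11, is not shown.
hsa-miR-205-5p, chr1:209432166-209432187, plus strand: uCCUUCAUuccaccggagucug
hsa-miR-200c-3p, chr12:6963742-6963764, plus strand: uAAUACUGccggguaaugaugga
hsa-miR-141-3p, chr12:6964155-6964176, plus strand: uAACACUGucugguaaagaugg
hsa-miR-31-5p, chr9:21512158-21512178, minus strand: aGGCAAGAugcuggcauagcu
hsa-miR-100-5p, chr11:122152275-122152296, minus strand: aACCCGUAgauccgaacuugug
hsa-miR-125b-5p, chr11:122099809-122099830, minus strand: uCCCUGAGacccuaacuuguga
No seed is shared among the 6. miR-200c, miR-141 and miR-205 are known to act on ZEB1 and ZEB2. The arrays read long polyadenylated transcripts, mature microRNA levels were not measured, and whether the host falls bear on ZEB1 or ZEB2 was not tested.

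Of 24 luminal and oestrogen-linked genes 10 fell (41.7%) and 3 rose (12.5%), against 18.1% and 9.54% of all genes: GREB1 (-1.70 ± 0.08), AGR2 (-1.26 ± 0.15), FOXA1 (-1.09 ± 0.11), EHF (-0.92 ± 0.06) and XBP1 (-0.41 ± 0.10) were lower, and TFF1 (1.28 ± 0.11), LTF (0.73 ± 0.15) and KRT8 (0.37 ± 0.08) higher. ESR1, the oestrogen receptor, differed by 0.11 ± 0.07 and was not called. In the list of basal and progenitor factors LBH, SNAI2, SOX9 (1.38 ± 0.06), MEIS2 (1.12 ± 0.06), BCL11A (0.79 ± 0.08) and TBX2 (0.56 ± 0.09) rose and SOX15 (-1.07 ± 0.06), SOX7 (-1.27 ± 0.08), EGR1 (-0.91 ± 0.09) and PROCR (-0.66 ± 0.05) fell, 8 and 4 of 25. KLF9 (1.72 ± 0.11) rose and KLF3 (-0.75 ± 0.07), KLF4 (-0.57 ± 0.08) and KLF5 (-0.57 ± 0.11) fell, 5 higher and 7 lower of 17 Krüppel-like factors, with 3 higher without the third vector or the third NICD array. FOXN3 (0.81 ± 0.05), FOXK1 (0.68 ± 0.05) and FOXC2 (0.44 ± 0.07) rose and, after FOXQ1 and FOXA1, FOXO3 (-0.43 ± 0.05) and FOXO1 (-0.37 ± 0.07) fell, 3 higher and 7 lower of 39 forkhead factors (7.69% and 17.9%). Among homeobox genes SIX2 (1.27 ± 0.06) and MSX2 (0.66 ± 0.08) rose and IRX5 (-1.04 ± 0.08), HOXA2 (-0.87 ± 0.11) and PITX1 (-0.74 ± 0.09) fell, 6 higher and 10 lower of 73 (8.22% and 13.7%). The forkhead and homeobox shares lie near or under the 9.54% and 18.1% of all genes. A list of other genes reported as Notch targets gave 8 higher and 7 lower of 24, with HES4, SNAI2 and SOX9 highest and TGFB2, KLF4 and TRIB2 (-0.49 ± 0.09) lowest.

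**Figure D4:**
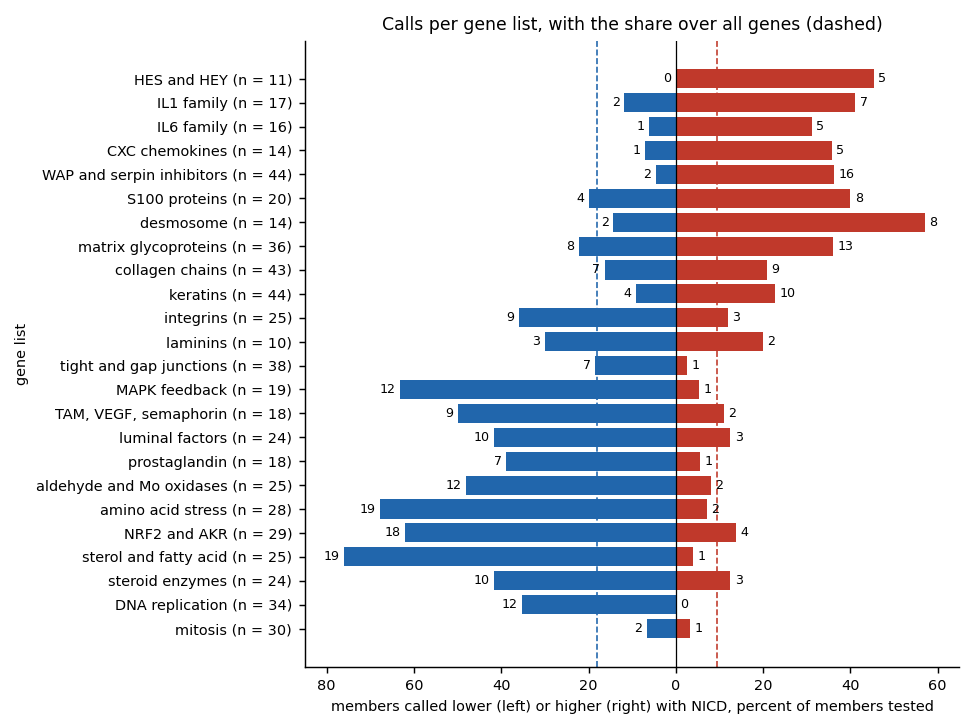
Percent of the tested members of each gene list called higher (right, red) or lower (left, blue) with NICD, with the number called beside each bar. Dashed lines mark the shares over all genes, 9.54% higher and 18.1% lower, which the desmosome and protease inhibitor lists exceed on the right and the sterol, amino acid stress, MAPK feedback and NRF2 lists on the left.

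Some of these counts depend on the scaling of the arrays. After cyclic loess scaling the HES and HEY genes gave 6 higher, the feedback genes of Notch 5 higher and 2 lower, the kallikreins 5 higher and 1 lower, the junction genes 3 higher and 7 lower, the MAPK feedback genes 3 higher and 12 lower, the sensing list 4 higher and 2 lower, the antigen presentation genes 12 higher and 1 lower and the apoptosis genes 8 higher and 5 lower. Others depend on 1 array. The falls among receptor maturation and cleavage genes numbered 1 or 2 without the second vector, the third vector, the first NICD or the third NICD array. Those among reticulum chaperone genes numbered 1 without the first array of either group. Those among channel genes numbered 7, 6 and 5 without the second vector, the third vector and the third NICD array in that order. In the lists for MAPK feedback, junctions, kallikreins, mucin-type genes, IL6, chemokine receptors, replication, mitosis, aldehyde dehydrogenases, HES and HEY genes and the fibroblast markers, a count of at most 2 moved by 1 call when 1 array was left out.

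Falls were frequent in several metabolic lists, and the sterol list had the largest share of falls of all lists tested. Of 25 sterol and fatty acid synthesis genes 19 fell and 1 rose, against 18.1% and 9.54% of all genes, with a median of -0.36. SCD, the stearoyl desaturase, read 12.39, 12.46 and 12.36 with vector and 11.63, 11.71 and 11.59 with NICD (-0.76 ± 0.05), and SREBF1, the factor that drives lipid synthesis, read 8.31, 8.40 and 8.62 and 7.70, 7.77 and 7.65 (-0.74 ± 0.08). The arrays of the groups did not overlap in either. ACACA (-0.71 ± 0.05), DHCR7 (-0.63 ± 0.07), TM7SF2 (-0.77 ± 0.09), FDPS (-0.59 ± 0.05), FASN (-0.54 ± 0.08) and MVD (-0.51 ± 0.07) fell, and LSS rose by 0.31 ± 0.05. HMGCS1 read 9.63, 10.19 and 10.19 with vector and 9.44, 9.86 and 8.59 with NICD. Its groups overlapped and its -0.70 ± 0.25 was not called.

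Of 28 genes for amino acid supply and the ATF4 stress response 19 fell and 2 rose (median -0.49). SLC7A11, the cystine importer, read 9.70, 9.21 and 9.47 with vector and 7.62, 7.70 and 7.81 with NICD (-1.75 ± 0.19). SLC7A5 (-1.52 ± 0.06) and SLC3A2 (-1.22 ± 0.06), the chains of the large neutral amino acid carrier, fell, and so did the asparagine synthetase ASNS (-1.05 ± 0.20), TRIB3 (-1.20 ± 0.14), CHAC1 (-0.78 ± 0.22) and PSAT1 (-0.78 ± 0.14). MTHFD2 (1.06 ± 0.09), a mitochondrial folate enzyme, and SLC1A4 (0.77 ± 0.09) rose.

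Of 29 NRF2 and aldo-keto reductase genes 18 fell and 4 rose (median -0.32), and SLC7A11 is a member of both lists. NQO1, a quinone reductase, read 11.47, 11.56 and 11.57 with vector and 10.53, 10.60 and 10.55 with NICD (-0.97 ± 0.05). The efflux pump ABCC3 (-2.08 ± 0.06), GCLC, the limiting enzyme of glutathione synthesis (-1.15 ± 0.06), and AKR1C1 (-1.33 ± 0.07) and AKR1C2 (-1.40 ± 0.06), near-identical copies whose probes may read both, fell. GPX2 moved against the list, and AKR1B10 (0.69 ± 0.07) and HMOX1 (0.47 ± 0.10) rose. NFE2L2, the NRF2 gene, differed by -0.03 ± 0.07 and was not called. Of 25 aldehyde dehydrogenases and molybdenum enzymes 12 fell. AOX1, aldehyde oxidase, read 9.66, 9.67 and 9.54 with vector and 7.07, 7.16 and 7.17 with NICD (-2.49 ± 0.05), ALDH3A1 9.03, 9.20 and 9.31 and 7.09, 6.93 and 6.94 (-2.19 ± 0.08), and XDH, the xanthine enzyme, fell by 1.71 ± 0.09. ALDH3B2 (2.04 ± 0.08) and ALDH1A1 (0.34 ± 0.11) rose.

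**Figure D5:**
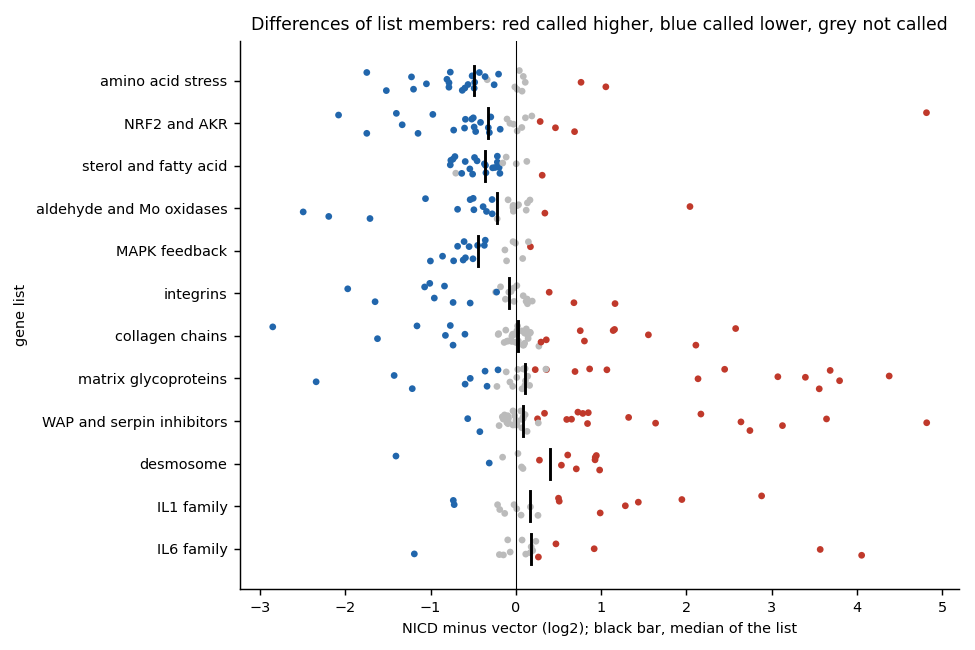
NICD minus vector difference on the log2 scale of every tested member of 12 gene lists (points: red called higher, blue called lower, grey not called), with a black bar at each list's median. The medians of the 4 metabolic lists and of MAPK feedback lie left of 0, and GPX2 at 4.82 stands apart from the other NRF2 and AKR genes.

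Smaller metabolic groups were mixed. Against the rise of HSD17B2, 10 of 24 steroid enzymes fell, among them HSD17B1, which makes estradiol (-1.10 ± 0.07), HSD17B6 (-0.75 ± 0.08) and HSD11B2 (-0.50 ± 0.13). CYP1B1 (1.22 ± 0.07) and HSD17B11 (0.44 ± 0.06) rose with HSD17B2. In prostaglandin metabolism PTGES (-0.97 ± 0.05), PTGS1 (-0.81 ± 0.08), HPGD (-0.93 ± 0.10) and the receptor PTGER4 (-1.36 ± 0.12) fell and the carrier SLCO2A1 (1.09 ± 0.09) rose, 7 and 1 of 18. SAT1, which acetylates polyamines for export, read 11.51, 11.64 and 11.53 with vector and 13.47, 13.46 and 13.40 with NICD (1.89 ± 0.05), and ODC1, which makes them, fell by 0.75 ± 0.05. MYC fell by 0.38 ± 0.05 and OAZ2 rose by 0.31 ± 0.06, 2 higher and 7 lower of 27 MYC and polyamine genes. The prolyl hydroxylase EGLN3 rose by 1.56 ± 0.08, while ADM (-0.77 ± 0.09), PFKP (-0.58 ± 0.06) and PKM (-0.37 ± 0.07) fell, and GAPDH (-0.10 ± 0.04), LDHA (0.06 ± 0.04) and ENO1 (-0.11 ± 0.04) were not called, 5 higher and 9 lower of 31. Of 21 reticulum chaperone genes 5 rose and 3 fell, counts that became 11 and 1 after cyclic loess scaling. HERPUD1 (-0.33 ± 0.10) and EDEM1 (-0.25 ± 0.07), which serve degradation of misfolded proteins, fell. HSPA5, the main chaperone, differed by 0.05 ± 0.05 without a call.

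Of 30 mitosis genes 1, TOP2A (0.21 ± 0.06), rose and 2 fell, PTTG1 (-0.38 ± 0.06) and BUB1B (-0.14 ± 0.05), against 4 and 1 after cyclic loess scaling. The shares were 3.33% and 6.67%, beside 9.54% and 18.1% of all genes. CCNB1 (0.06 ± 0.07) and CDK1 (0.05 ± 0.07) were not called. Of 34 replication genes 12 fell, but after cyclic loess scaling 1 rose and 5 fell, and with 1 array left out the falls numbered 7, without the third NICD array, to 14. GINS4 (-0.98 ± 0.29) and ORC1 (-0.40 ± 0.07) fell most, GINS4 losing its call when any of 4 arrays was left out, and PCNA (0.02 ± 0.06) was not called. Among regulators of the G1 phase CCND1 read 9.83, 9.94 and 9.97 with vector and 10.98, 10.86 and 10.71 with NICD (0.94 ± 0.07), CDK6 rose by 0.77 ± 0.09, CCNA1 by 1.06 ± 0.07, and the inhibitors CDKN1C and CDKN1A by 1.03 ± 0.10 and 0.37 ± 0.06, while CCND2 (-0.49 ± 0.05) and CCND3 (-0.22 ± 0.06) fell, 12 higher and 6 lower of 34 cyclin, kinase and inhibitor genes (35.3% and 17.6%). The stress genes GADD45A (1.52 ± 0.05) and PLK2 (1.53 ± 0.06) rose and GDF15 (-1.03 ± 0.12) and SESN2 (-0.56 ± 0.10) fell, 8 higher and 6 lower of 23. Of apoptosis genes TNFSF10 and CFLAR (0.91 ± 0.06), an inhibitor of its signal, rose, and its receptor TNFRSF10A (-0.45 ± 0.10), FAS (-0.56 ± 0.06) and BCL2L1 (-0.66 ± 0.11) fell, 5 higher and 6 lower of 26.

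Of 34 interferon-stimulated genes 10 rose (29.4%, against 9.54% of all genes) and 6 fell (17.6%, near the 18.1% of all genes). IFI44L read 9.02, 9.10 and 8.81 with vector and 7.21, 7.07 and 7.33 with NICD (-1.77 ± 0.10), and its neighbour IFI44 (-1.02 ± 0.14), OAS1 (-0.80 ± 0.07) and BST2 (-0.74 ± 0.06) fell. ISG20 (1.19 ± 0.10), IFITM1 (0.50 ± 0.10) and ISG15 (0.39 ± 0.08) rose. PSMB8 (-0.30 ± 0.09), PSMB10 (-0.30 ± 0.07) and TAP2 (-0.22 ± 0.05) were the falls among 33 antigen presentation genes, of which 10 rose, led by TAPBP (0.84 ± 0.07), PSMB9 (0.61 ± 0.07) and HLA-F (0.55 ± 0.06), with the caution that HLA class I probes may read several genes. Of 133 channel genes 11 rose and 11 fell, 8.27% in each direction, under the 9.54% and 18.1% of all genes. KCNN3 (2.45 ± 0.13) and KCNJ16 (2.22 ± 0.14) rose most and KCNN4 (-1.43 ± 0.07) and the epithelial sodium channel subunit SCNN1A (-1.33 ± 0.06) fell most. Among 15 GABA receptor subunits GABRP alone rose, and GABRA2 fell by 0.53 ± 0.10.

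Some changed genes had changed neighbours. Of 353 genes that rose at least 2-fold and could be placed on a chromosome, 53 lay in 25 runs of adjacent tested genes that all did so, as did 15 of 204 2-fold falls, in 7 runs. These were described with no test of how many chance would give. The longest held 3 genes, among them WFDC5, WFDC12 and PI3 on chromosome 20 and MIR205HG, MIR205 and LAMB3 on chromosome 1. PLA2G2A with PLA2G5, C1S with C1R, GUCY1A1 with GUCY1B1, IL1RL1 with IL18R1 and IGFBP7 with IGFBP7-AS1 were pairs of rises, and BDKRB2 with BDKRB1, DKK1 with LNCAROD and IFI44L with IFI44 were pairs of falls. Members of a pair may share probes, promoters or transcripts, which was not tested.

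For 59 genes, 2 probe sets were called in opposite directions. The widest gap was that of CBS, the cystathionine synthase, whose 3 probe sets gave 1.46 ± 0.14, -0.36 ± 0.10 and 1.63 ± 0.18 in order of brightness. SYTL4 gave -0.62 ± 0.09 and 0.83 ± 0.08 on its brighter 2. NUCKS1, a nuclear phosphoprotein read by 8 probe sets, had 2 higher and 4 lower, from -0.98 to 0.30. ITGA9, TTLL11 and ATXN1 ranged from -0.30 to 0.99, -0.71 to 0.44 and -0.32 to 0.81. Of the 475 genes named here, 41 with a call on their brightest or dimmest probe set had opposite signs on the pair, and of these DLL1, NUCKS1 and TTLL11 alone were called on the dimmest. For genes with calls in opposite directions, the sign of the gene-level value depends on the probe set that stands for the gene. Where the dimmest probe set was not called, its sign is not settled by these data.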

How the data were processed

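Total RNA of 12 MCF-10A samples was labelled and hybridised to 1-colour Affymetrix arrays of 54675 probe sets. The deposited values are log2 signals that the authors made with RMA, and limma is also named, per the submitters' processing notes, with versions not given in the sources used here. RMA includes quantile normalization. The values run from 2.27 to 15.01, array medians from 5.64 to 5.70, and 3 arrays per group limit the precision.

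41091 probe sets named 1 gene on the platform annotation, 1801 several and 11777 none or a control, and 41037 matched RefSeq. The probe set with the highest mean over the 12 arrays stood for each of 19775 genes, 10523 of which had others. All 12 arrays entered 1 limma 3.58.1 fit (R 4.3.3; residual df 8, prior df 4.09), two-sided, with Benjamini-Hochberg adjustment over all genes and a threshold of 0.05. Scripts were tested on simulated data.

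Members and gene lists were chosen with earlier results of these data known. Named genes are NOTCH1, the called and some of the uncalled members of the 6 Notch lists, and the 25 largest rises and 25 largest falls. Up to 8 called members per direction and 4 bright uncalled members of each other list were added. So were 6 genes with opposed probe sets and the 8 largest differences per direction between NICD and NOTCH1 L1601P+ΔP, besides those said to be named after their values were seen. The 25 largest rises and falls were defined among called genes whose NICD arrays do not overlap the vector arrays. Deviations of same-numbered NICD and vector arrays correlated at -0.0834, 0.00589 and -0.00253, so the numbers were not taken as pairs. Alternatives were another scaling, probe set choice, filter, moderation, threshold, sample set, replicate block and leaving out each array.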

Additional observations from a re-analysis of the deposited data

How the results depend on the processing

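The 5460 calls between NICD and vector became 5184 after cyclic loess scaling, 5428 after median centring, 4522 with the 6 arrays alone and 5999 with a trended, robust prior, and at an adjusted p under 0.01 they numbered 3809. Leaving out 1 array gave 4624 to 5513. With the replicate block they numbered 5171 (1834 higher, 3337 lower), 3642 against NOTCH1 L1601P+ΔP and 4995 against full-length NOTCH1. The share of calls that were higher moved from 34.6% to 51.6% with cyclic loess, and the cause was not tested. Dimmest probe sets gave 3093 calls (1104 higher, 1989 lower) and the 2-fold falls, 204 at first, numbered 121 there and 130 on the mean of probe sets. Of 422 called genes named above, 393 kept their call and direction under every alternative at the 0.05 threshold that kept the probe set and tested them, and 29 lost a call at least once: ALDH1A1, APH1A, APH1B, BUB1B, CCL2, CCND3, CHAC1, CXCL6, CXCL8, DUSP10, EDEM1, EP300, GINS4, HERPUD1, IRAK1, ITCH, KLK5, MUC4, MYD88, NOTCH2, POGLUT1, PSENEN, PSMB8, TAP2, TICAM1, TLE4, TLR1, TOP2A and TWIST1. None of them changed direction there. Of 53 named genes without a call, 21 gained one under at least 1 alternative: ADAM10, CDH3, COL1A1, COL3A1, DNER, DTX1, DUSP5, ENO1, FBXW7, GAPDH, HES1, HES7, HMGCS1, IER3, ITGA9, LIF, MAML1, NFKB1, NUCKS1, NUMBL and STAT3. Signs turned on the mean of probe sets for DLL1 -0.43, NUCKS1 -0.32 and SYTL4 0.12 (log2), and on the dimmest probe set for ACTA2 -0.088, AGR2 0.055, AKR1C2 0.025, CFB -0.15, CLU 0.026, CXCL2 -0.013, DLL1 -0.96, EGFR 0.013, EP300 -0.037, FASN 0.13, GREB1 0.014, HBEGF 0.019, IL11RA -0.034, IL6ST -0.059, IRAK2 0.028, ITGB1 0.021, ITGB2 0.071, KLF5 0.12, LFNG 0.0042, LRP5 0.14, LTBP3 0.11, MAML3 0.0077, NOTCH3 -0.089, NUCKS1 -0.98, P4HA2 -0.13, PFKP 0.097, POGLUT1 0.038, POSTN -0.022, PTGER4 0.0048, RAP1A 0.077, SERPINB13 0.097, SERPINB8 0.14, SFRP1 0.12, SLC1A4 -0.036, SYTL4 0.16, TAPBP -0.18, TBX2 -0.24, THBS1 0.0045, TLE4 0.050, TOP2A -0.15 and TTLL11 0.44. Of the genes whose sign turned on the dimmest probe set, only DLL1, NUCKS1 and TTLL11 were called there. Signal over background was not analysed here, so the dimmest genes are the least certain.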
